A study of Sus scrofa with 4 samples.

Results

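Receptor tyrosine kinases of several families and an ephrin ligand were followed in the thymus of IL2RG KO and WT pigs, namely EGFR, MET, FGFR2, AXL, EPHA4 and EFNB2. All 6 genes gave a higher signal in the KO thymus at every probe that carries their names, though EFNB2 and 2 EPHA4 probes were not well above background in WT. Of all probes well above background on every array, 33.4% had both KO arrays above both WT arrays. The genes were fixed by name, with earlier results of these data known. Every array probe whose RefSeq accession belongs to one of them was taken. That gave 13 probes of the 43597 kept on the array for 6 of the 3020 genes that could be named. EGFR, MET and EFNB2 had 1 probe each, FGFR2 and EPHA4 had 3 each, and AXL had 4.

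Total RNA of whole thymus was measured on 4 one-colour Agilent porcine arrays, with 2 arrays for each genotype, IL2RG KO and WT. The labels give the KO genotype as IL2RG+/- and the breed of all animals as Minnesota miniature swine, and the study names the allele mIL2RG+/Δ69-368. The KO animals were founders made with TALENs, engineered nucleases that cut a chosen site, in cultured cells that were then cloned by somatic cell nuclear transfer. Age, sex and the number of donor cell colonies behind the arrayed KO pigs are not given in the sources used here, and neither is whether the WT pigs were cloned. Most KO founders had no thymus at all, so both KO arrays come from the pigs that kept a rudimentary one. The labels call the arrays replicates. The study names a pair of KO animals with a thymus but does not say that the WT samples came from separate pigs, so the p-values measure the spread between these samples.

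Receptor tyrosine kinases are membrane proteins that bind a growth factor outside the cell and pass the signal on by phosphorylating tyrosines inside it. EGFR, MET and FGFR2 are best known in epithelial cells, where the ligands of MET and FGFR2 come largely from neighbouring mesenchyme. FGFR2 is required for the growth of the epithelial thymus. AXL is a receptor of macrophages, endothelium and mesenchyme that takes part in the clearance of dying cells. Eph receptors such as EPHA4 bind ephrins held on the surface of a neighbouring cell, and EFNB2 is such a membrane-bound ligand, known from arterial endothelium and from thymic epithelium and thymocytes.

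Both probes of IL2RG, the gene edited with TALENs, were lower on the KO arrays, in the direction of the labels. The brighter probe read -3.15 and -3.29 in KO and -0.13 and 0.52 in WT on the normalised scale used throughout, the log2 of the processed signal minus the array's 75th percentile. Its difference was -3.41 ± 0.27 (SE of the fit; limma adjusted p = 0.00256), and that of the dimmer probe was -4.38. Where these probes lie relative to the edited site is not given in the sources used here. All 14 thymocyte genes tested were lower in KO as well, with a median of -2.80. An effect of the edit and a loss of thymocytes therefore cannot be told apart in the fall of IL2RG. Between 67.9% and 74.5% of probes on an array were well above background, no spot was saturated, and the 2 WT arrays differed 2-fold or more at 2808 tested probes against 749 for the 2 KO arrays. Slide 1 carried KO replicate 1 with WT replicate 2, and slide 2 carried KO replicate 2 with WT replicate 1. Among all 31960 tested probes, 21.0% were called higher in KO, where called means a limma Benjamini-Hochberg adjusted p below 0.05 and a change of at least 2-fold. Of all calls in either direction 61.7% were higher, and 47.8% when arrays were scaled to their median.

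Of the 13 probes, 10 were well above background on all 4 arrays, and these belong to EGFR, MET, FGFR2, AXL and EPHA4. All 10 were called higher in KO, against 16.8% of the 27970 probes measured equally well, and 9 of the 10 passed 4-fold, against 7.63%. On every one of the 10, both KO arrays read above both WT arrays, which held for 33.4% of such probes. Their log2 fold changes ran from 1.41 to 3.03 with a median of 2.21, while the median over all probes of that kind was -0.14. Since the genes were chosen with earlier results of these data known, these comparisons describe the probes and test nothing. FGFR2 gave 3 of the 10 probes and AXL 4, so the probes are not separate genes. The remaining 3 probes, 2 of EPHA4 and the only one of EFNB2, were well above background on the KO arrays alone. They entered the test through the genotype in which they were high, so a difference at these 3 follows in part from the filter. In RNA of whole tissue, fewer cells of a type and less RNA per cell cannot be told apart, and this holds for every value given here.

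**Figure D1:**
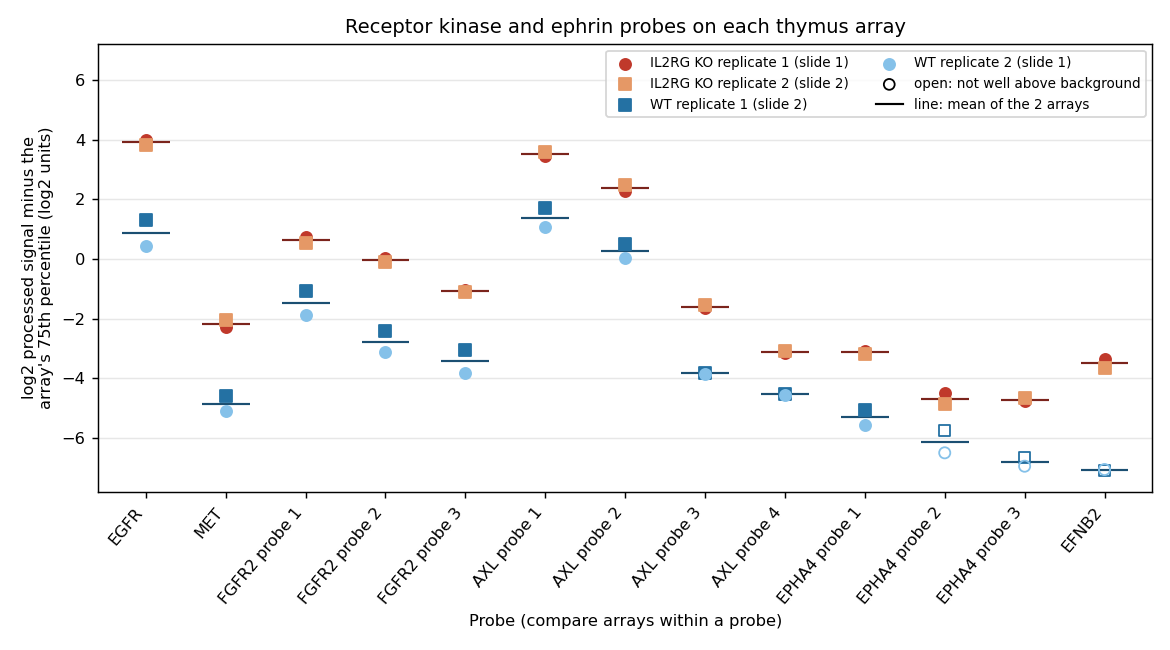
Normalised signal of the 13 probes on each of the 4 thymus arrays (y axis, log2 processed signal minus the array's 75th percentile; x axis, probes, numbered within a gene from the brightest). Filled points were well above background, open points were not, and lines mark the mean of the 2 arrays of a genotype. At the 10 probes filled on all arrays both KO arrays lie above both WT arrays, as they do at 33.4% of all probes measured equally well. The other 3 probes were well above background on the KO arrays alone, so their separation follows in part from the filter. Levels of different probes are not comparable.

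EGFR, the receptor of epidermal growth factor and its relatives, showed the largest change of the 10 probes measured on both sides. Its probe, A_72_P223517, read 4.00 and 3.82 on the KO arrays and 1.32 and 0.44 on the WT arrays. In processed signal, in the scanner's arbitrary units, this was 12159 and 9839 against 1544 and 942. Both KO values lay close together and the WT values were 0.88 apart, with no overlap between the genotypes. The log2 fold change was 3.03 ± 0.34 (SE; limma adjusted p = 0.00464), or 8.18-fold. It came to 3.56 on slide 1 and 2.51 on slide 2.

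MET, the receptor of hepatocyte growth factor, was read by probe A_72_P232597 at -2.28 and -2.05 in KO and at -4.59 and -5.09 in WT. The genotypes were separated by far more than the arrays within either of them. The increase was 2.68 ± 0.24 on the log2 scale (limma adjusted p = 0.00307), or 6.39-fold, with 2.81 on slide 1 and 2.54 on slide 2. EGFR and MET, the leading pair, changed places between the slides, since the difference of MET was the larger of the pair on slide 2. Their order is therefore not settled by these arrays.

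FGFR2, a receptor of fibroblast growth factors, was measured by 3 probes. The brightest, A_72_P232647, read 0.74 and 0.54 in KO and -1.07 and -1.88 in WT. The second, A_72_P706634, read 0.05 and -0.10 in KO and -2.42 and -3.12 in WT. The third, A_72_P413708, gave -1.04 and -1.10 in KO and -3.04 and -3.82 in WT. At all 3 probes the KO arrays nearly coincided, WT replicate 2 was the lowest array, and the genotypes did not overlap. Their log2 fold changes were 2.12 ± 0.32, 2.74 ± 0.28 and 2.36 ± 0.30, with limma adjusted p-values of 0.00900, 0.00405 and 0.00625. The brightest probe gave the smallest of these changes, and the probes spanned 0.63. The second probe exceeded the brightest on both slides, with 3.17 against 2.62 on slide 1 and 2.32 against 1.61 on slide 2. Which transcript variants of FGFR2 each probe detects is not given in the sources used here.

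AXL, a receptor that binds the bridging protein GAS6 on dying cells, was measured by 4 probes, all of them higher in KO. The brightest, A_72_P177091, read 3.44 and 3.59 in KO and 1.70 and 1.07 in WT. Probe A_72_P669264 followed it with 2.27 and 2.47 against 0.50 and 0.04. The dimmer A_72_P442844 gave -1.64 and -1.55 against -3.81 and -3.85. These 3 probes agreed in size, with log2 fold changes of 2.13 ± 0.26, 2.10 ± 0.22 and 2.23 ± 0.15 and limma adjusted p-values of 0.00583, 0.00428 and 0.00221. The dimmest, A_72_P117266, read -3.14 and -3.09 in KO and -4.51 and -4.55 in WT, and its change was smaller at 1.41 ± 0.15 (limma adjusted p = 0.00429), or 2.67-fold. On this probe both pairs of replicates lay within 0.06 of each other. It fell to 0.49, under 2-fold, when background was corrected with normexp, which adds an offset of 50 to every spot.

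EPHA4, an Eph receptor that binds ephrins of both classes, was dim on all arrays. Only its brightest probe, A_72_P372243, was well above background throughout, at -3.06 and -3.17 in KO and -5.07 and -5.54 in WT. Its log2 fold change was 2.19 ± 0.22 (limma adjusted p = 0.00386), or 4.56-fold. With normexp correction the change at this probe was 0.65, which is under 2-fold and ends the call. The other two probes were not well above background on either WT array, so their change is given as a lower bound. For such probes the mean of the KO arrays was set against the lowest signal well above background on each WT array, or against the probe's own signal where that was higher. Probe A_72_P472481 read -4.50 and -4.86 in KO and was at least 2.20-fold higher (limma adjusted p = 0.0227). A_72_P220702, at -4.75 and -4.67 in KO, was at least 2.15-fold higher (limma adjusted p = 0.00296). Both p-values belong to the fitted differences, which use the WT signals not well above background, and not to the bounds. The call of A_72_P472481 was lost without KO replicate 1 (limma adjusted p = 0.110) and without KO replicate 2 (limma adjusted p = 0.0708). Under normexp both probes were under 2-fold, at 0.25 and 0.32.

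EFNB2, the membrane-bound ligand of EphB receptors and of EPHA4, was read by a single probe, A_72_P190121, at -3.34 and -3.65 in KO. On the WT arrays it read -7.07 and -7.05 and was not well above background on either of them. Processed signals were 75.2 and 55.4 in KO and 4.63 and 5.25 in WT. The gene was thus measured on the KO side alone, and it was at least 5.0-fold higher there. The limma adjusted p of 0.00205 belongs to the fitted difference, which uses these WT signals, and not to the bound. Normexp correction brought its change to 0.69 on the log2 scale (limma adjusted p = 0.00983), again under 2-fold. The offset of 50 lies above both WT signals and shrinks the change by itself.

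**Figure D2:**
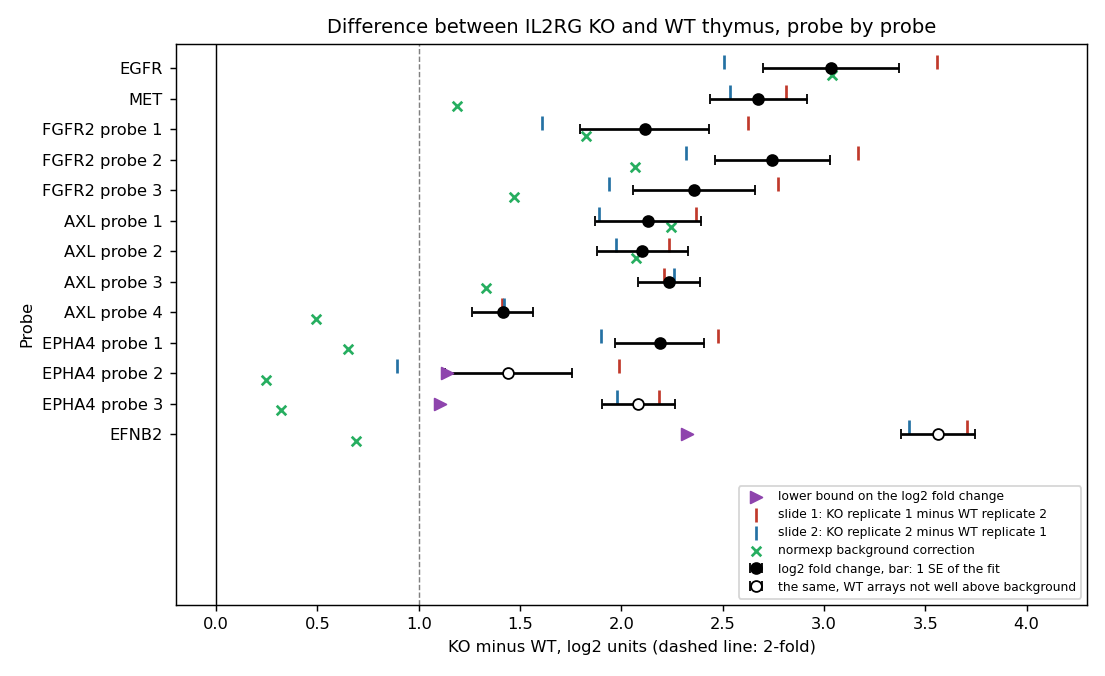
KO minus WT difference of each of the 13 probes (x axis, log2 units; y axis, probes numbered from the brightest within a gene), with bars of 1 SE from the fit over all probes. Ticks give the difference within each slide, triangles the lower bound for the 3 probes not well above background in WT, and crosses the difference after normexp background correction, which falls below 2-fold at 5 probes.

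On the 5 genes measured on both sides, the brightest probes ranked EGFR, MET, EPHA4, AXL and FGFR2 by their change. The last 3, between 2.12 and 2.19, differed by less than any of their standard errors, and AXL and FGFR2 changed places between the slides. With its second probe, at 2.74, in place of the brightest, FGFR2 would come between EGFR and MET. The order of the genes is therefore not settled. Within slides, the 10 probes measured on both sides differed by 1.41 to 3.56 on slide 1 and by 1.42 to 2.54 on slide 2, and the slide 1 difference was the larger at 8 of the 10. With slide fitted as a block these 10 probes stayed called, where 6887 of all 31960 tested probes were called higher. The 3 probes not well above background in WT also stayed called, which follows in part from the filter.

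The spread between the arrays was uneven. The KO arrays differed by at most 0.35 on any of the 13 probes, and the WT arrays by up to 0.88. On all 10 probes measured on both sides WT replicate 1 read above WT replicate 2, by 0.05 to 0.88 with a median of 0.56. Among all probes measured equally well this held for 48.3%, with a median difference of -0.02. KO replicate 1 was above KO replicate 2 at 5 of the 10.

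Markers of some cell types were higher in KO and those of others were lower. As background for the counts that follow, 25.2% of the 2702 named genes tested were called higher in KO and 12.6% lower. Of the thymic epithelial list 8 of 17 genes could be tested, and 4 rose, with none lower. These were KRT8, a keratin, at 2.37 ± 0.33, CLDN4 at 2.10 ± 0.16 and CLDN3 at 1.86 ± 0.22, both tight junction proteins, and CDH1, the epithelial cadherin, at 1.34 ± 0.23 (log2 fold change ± SE). EPCAM at 0.37 ± 0.16, CCL25 at 0.48 ± 0.22, DLL4 at 0.70 ± 0.23 and LY75 at 0.41 ± 0.24 did not pass the test. FOXN1, the transcription factor that defines thymic epithelium, had no named probe. The summed signal of the list, in units of each array's 75th percentile, was 283 and 261 on the KO arrays and 107 and 76.8 on the WT arrays. Such a sum follows its brightest gene most. Here that was KRT8 on every array, at 7.61 and 7.54 in KO and 5.65 and 4.76 in WT.

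Fibroblast, endothelial and macrophage lists were higher in KO as well. Among fibroblast genes 3 of 4 tested rose, COL1A2, DCN and LUM, all of them matrix genes, with sums of 115 and 175 in KO and 63.2 and 27.3 in WT. Those sums follow DCN most, the brightest of the list, at 6.62 and 7.24 in KO and 5.78 and 4.50 in WT. Among endothelial genes 4 of 5 rose, PECAM1, CDH5, VWF and CLDN5, with sums of 19.2 and 21.2 against 7.15 and 4.65. Macrophage genes rose at 9 of 10, with a median change of 2.12 on the log2 scale and sums of 285 and 354 against 72.6 and 56.5. WT replicate 1 had the larger sum of the WT arrays in each of these 4 lists and in the adipocyte list. Single markers did not all follow, and a link to the 6 genes was not tested.

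Thymocyte genes went the other way. All 14 tested were called lower. Their median change on the log2 scale was -2.80, and their sums were 40.1 and 38.8 in KO and 255 and 341 in WT. RAG1, RAG2 and PTCRA, which mark early thymocytes, changed by -7.68, -7.76 and -7.74. Adipocyte genes rose at 4 of 8, and their sums separated the KO arrays, at 43.3 and 125 against 19.3 and 10.3 in WT. Of the smooth muscle and pericyte genes 2 of 4 rose, CNN1 and RGS5, while ACTA2 was at -0.53 ± 0.17 and not called, and the summed signal was lower in KO, at 29.2 and 28.5 against 32.8 and 35.1. Of the skeletal muscle genes 3 of 9 fell, and the summed signal was lower on both KO arrays than on both WT arrays. Every tested marker of the epithelial, fibroblast, endothelial and thymocyte lists was well above background on at least 1 array of each genotype, with RAG2 on 1 of the KO arrays, so markers of thymocytes and of stroma were measured in both genotypes. The part of these shifts in the increase of the 6 genes was not tested, and whole-tissue RNA does not tell in which cells the 6 genes were transcribed.

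**Figure D3:**
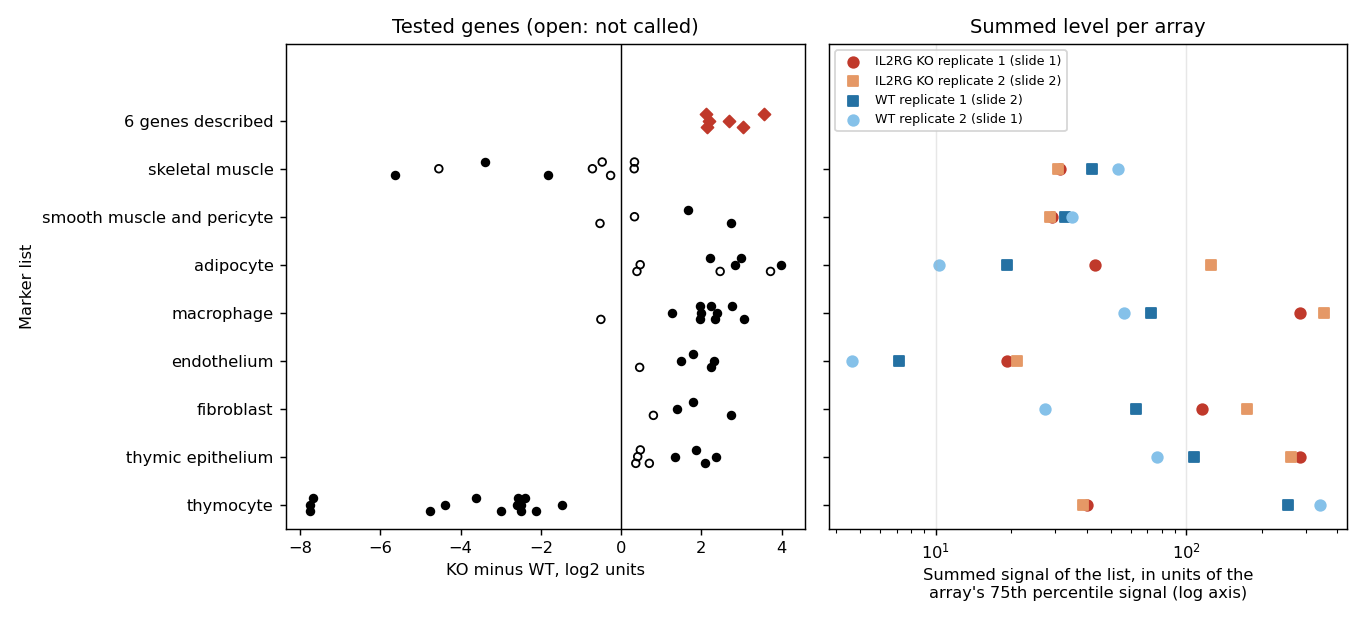
Left, KO minus WT difference (x axis, log2 units) of each tested marker gene by cell type list, with called genes filled, beside the 6 receptor and ephrin genes by their brightest probes. Right, summed signal of each list on each array (x axis, log scale, in units of the array's 75th percentile). Thymocyte genes lie at -1.47 or lower, and the epithelial, fibroblast, endothelial and macrophage sums of both KO arrays exceed those of both WT arrays.

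The wider pathway was read from a list of 138 further receptors, ligands and regulators, of which 46 belong to other receptor kinase families than the 6 genes. Only 30 had a probe with their name, and 29 of these could be tested by their brightest probe. Of the 29, 14 were called higher and 3 lower, where those shares over the 2702 named genes tested were 25.2% and 12.6%. In the families of the 6 genes 6 of 18 were higher and 3 lower, close to those shares. The other 8 higher calls came from the 11 genes tested in other receptor kinase families. These 8 calls were 3 receptors and 5 ligands. The median log2 fold change of the 29 was 0.78, and 0.72 with the genes below background in a genotype set at their bound. TGFA, KITLG and FGF9 were well above background in a single genotype and entered the test through it. Their differences and p-values therefore follow in part from the filter, and the p-values belong to the fitted differences, not to the bounds. Most close relatives had no named probe. These were ERBB2, ERBB3 and ERBB4, HGF, GAS6, PROS1, TYRO3, MERTK, FGFR1, FGFR3, FGFR4 and the other Eph receptors.

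Of the ligands of EGFR, EGF itself was higher at the 2 of its 3 probes that could be tested. The brighter read -2.22 and -2.16 in KO against -4.18 and -4.96 in WT, which makes a difference of 2.38 ± 0.30 (limma adjusted p = 0.00622). TGFA was not well above background in WT and was at least 1.27-fold higher (limma adjusted p = 0.00567). HBEGF and AREG did not pass the test, at -0.01 ± 0.19 and 0.43 ± 0.37. ADAM17 and ADAM10, the proteases that release such ligands from the membrane, and the adaptor GRB2 were not called, at 0.20 ± 0.19, -0.53 ± 0.16 and -0.26 ± 0.18. EGF was thus the only ligand of EGFR that was measured in both genotypes and called.

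For MET, whose ligand had no named probe, a protease and a protease inhibitor of the ligand's activation were measured. PLAU, the urokinase that can cleave the precursor of hepatocyte growth factor, rose by 1.83 ± 0.21 with 3.39 and 3.76 in KO and 1.86 and 1.63 in WT. SPINT1, an inhibitor of the activating proteases, rose by 1.17 ± 0.17, and its second probe by 2.15. Its brighter probe was under 2-fold with quantile normalisation, median scaling, normexp and the deposited log2 values, between 0.49 and 0.99.

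In the FGFR2 group FLRT3, a membrane protein that binds FGF receptors, rose by 2.28 ± 0.48. It read -0.97 and -1.07 in KO, and in WT -2.62 and -3.98, so the WT arrays stood 1.35 apart. FGF9, a ligand made by epithelial and mesothelial tissue, went the other way. It read -4.03 and -4.40 in WT, was not well above background on either KO array, and was at least 4.03-fold lower there (limma adjusted p = 0.00456). FGF21, the docking protein FRS2 and DUSP6, a phosphatase induced by FGF signalling, did not pass the test. Their values were 0.78 ± 0.27, 0.75 ± 0.23 and 0.01 ± 0.16, and the other probe of FRS2 was at -0.11.

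In the Eph and ephrin group EFNA1, a ligand of EphA receptors, rose by 2.02 ± 0.24 (limma adjusted p = 0.00528), from -2.36 and -2.83 in WT to -0.42 and -0.72 in KO. The adaptors NCK1 and GRB10, which bind activated receptors, fell, with differences of -1.61 ± 0.17 and -1.40 ± 0.17, GRB10 at all 3 of its probes. Both are widely expressed and also act with other receptors. NCK2 was at 0.72 ± 0.22 and did not pass the test. EFNB3 was below background on all arrays and was not tested.

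Among other receptor kinases NTRK3, a neurotrophin receptor, rose by 3.42 ± 0.20 at its brightest probe and by at least 3.05 at all 3. IGF1R and DDR1, the receptors of insulin-like growth factor and of collagen, rose by 1.27 ± 0.16 and 1.03 ± 0.15. DDR1 was under 2-fold with quantile normalisation (0.84), median scaling (0.78), normexp (0.56) and the deposited values (0.88). KIT, the receptor of stem cell factor, was at 0.60 ± 0.32 and did not pass the test at any of 3 probes, while its ligand KITLG was at least 1.57-fold higher (limma adjusted p = 0.00638). VEGFA, ANGPT1, IGF1 and IGF2, growth factors of vessels and mesenchyme, rose by 2.56 ± 0.20, 2.95 ± 0.80, 1.99 ± 0.29 and 2.28 ± 0.26. IGF2 was called at 4 of its 5 probes, which ran from 0.97 to 2.48. ANGPT1 was well above background on 1 WT array only, with -5.10 and -7.41 in WT, and its call was lost without the filter on dim probes (limma adjusted p = 0.0621). ANGPT2 and BDNF were at 0.17 ± 0.16 and -0.14 ± 0.76. The 14 genes called higher became 9 without KO replicate 1 and 9 without KO replicate 2, and the calls of SPINT1, FLRT3, IGF1R, DDR1 and ANGPT1 were lost in both cases, with limma adjusted p-values from 0.0536 to 0.128. The call of GRB10 was lost without KO replicate 2 (limma adjusted p = 0.0533). With normexp TGFA, SPINT1, IGF1R, DDR1, KITLG, ANGPT1 and FGF9 were each under 2-fold, at 0.20, 0.49, 0.71, 0.56, 0.35, 0.67 and -0.63.

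**Figure D4:**
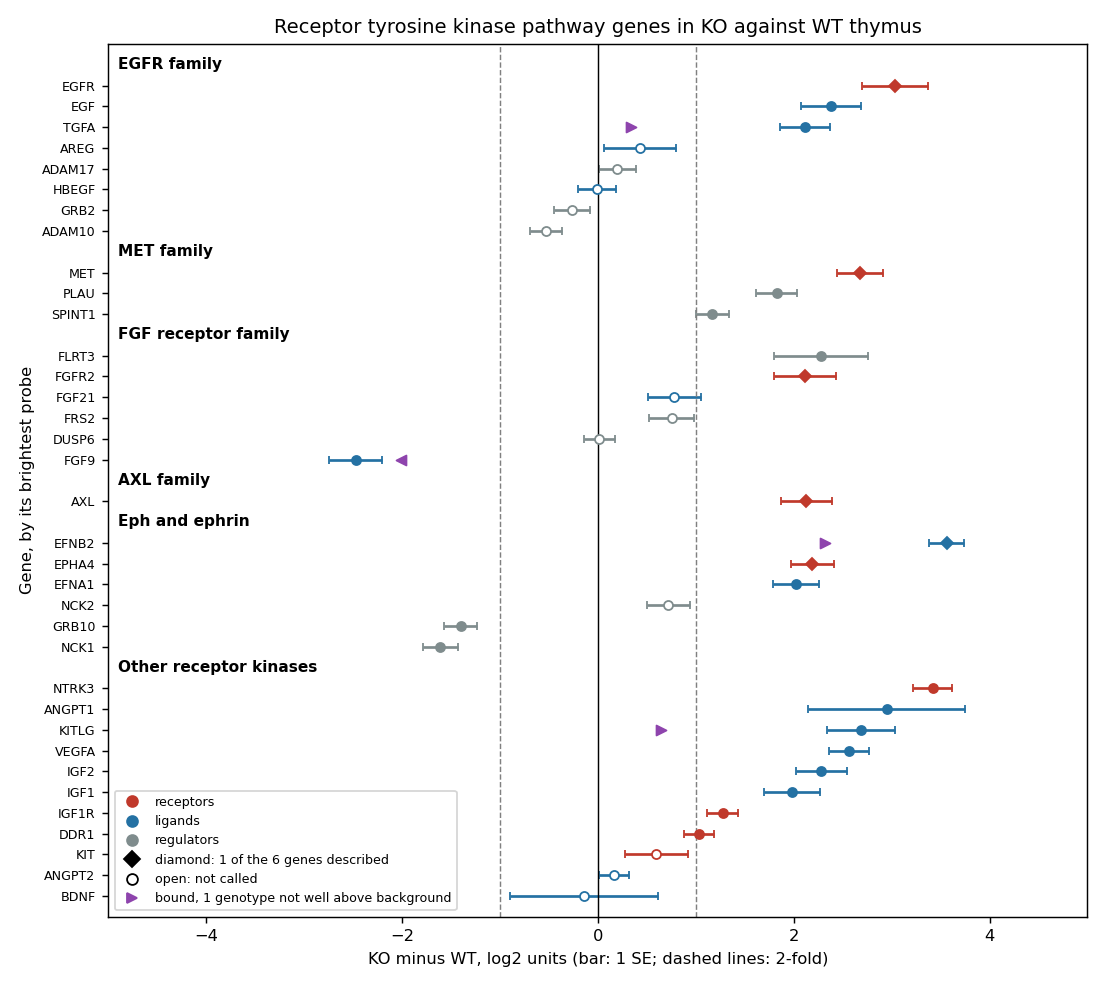
KO minus WT difference (x axis, log2 units, bars of 1 SE) of the 6 genes (diamonds) and of the 29 further pathway genes tested, by family, coloured by role and filled where called. Triangles mark the bound where a genotype was not well above background. Outside the 6, 14 genes have a fitted change of at least 2-fold and pass the test, though the bounds of TGFA and KITLG lie under 2-fold. FGF9, NCK1 and GRB10 are called lower.

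Genes alike in pattern were sought among 2509 named genes well above background on all arrays. Each profile over the 4 arrays was centred on its own mean, and likeness was the root mean square difference on the log2 scale. With 4 arrays in 2 groups this measure mostly reflects the size of the change and the gap between the WT arrays. The nearest genes are given for FGFR2, AXL and EPHA4. FGFR2 was nearest to PPP1R14A, an inhibitor of myosin phosphatase, at 0.03 and SPARCL1, a matrix-associated protein, at 0.04. For AXL the nearest were SLA-DMB, a chain of the class II loading factor, and ATP9A, a membrane transporter, both at 0.05.

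EPHA4 had the closest neighbours of these 3, TLR2, a receptor of bacterial lipoproteins, at 0.02 and POPDC3, a membrane protein of muscle, at 0.03. For EFNB2, whose WT values were not well above background, no distance is given. Among the 5 genes measured in both genotypes AXL and EPHA4 were the most alike, at 0.11, and FGFR2 stood within 0.14 of each of them. EGFR and MET were 0.26 apart.

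**Figure D5:**
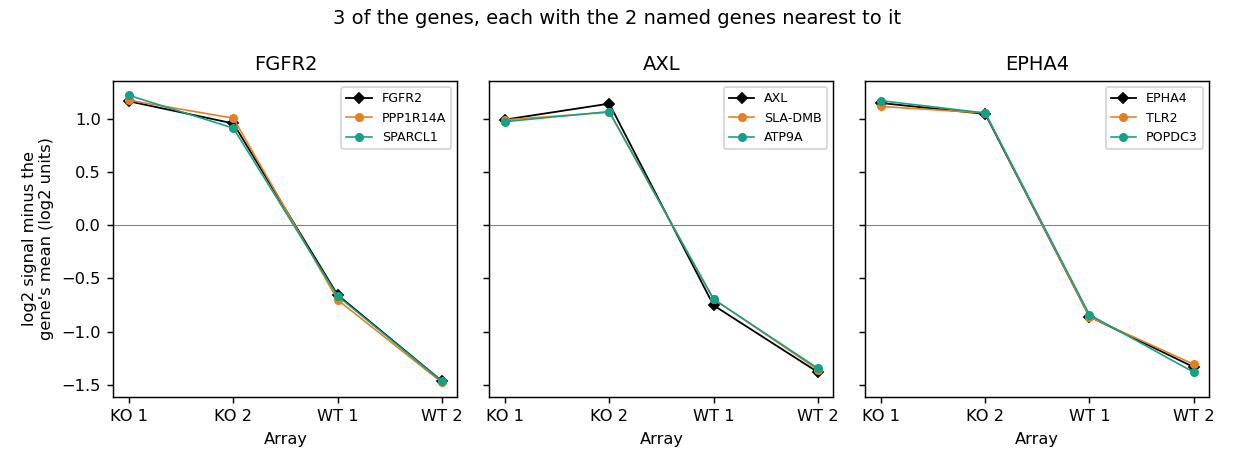
Log2 signal minus the gene's own mean over the 4 arrays (y axis, log2 units) for FGFR2, AXL and EPHA4 (black), each with its 2 nearest named genes, on KO replicates 1 and 2 and WT replicates 1 and 2 (x axis). Lines only join the points of a gene. In all 3 panels WT replicate 2 is the lowest array.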

How the data were processed

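Total RNA from 2 IL2RG KO and 2 WT thymus samples was labelled with Cy3 and hybridised to Agilent porcine 4x44K arrays, which, per the labels, the authors read with Feature Extraction 11.0.1.1. The scanner files hold the deposited processed intensity of each spot, background-subtracted by the authors' software, and a mark for well above background. The deposited log2 value table served as an alternative. It covers 27970 of the kept probes and correlated with the scanner intensities at 0.9998 or more. Depth has no counterpart on arrays, and their number limits the precision.

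Control and outlier spots were dropped, spots of a probe averaged, and each array's 75th percentile subtracted from the log2 values (R 4.3.3, limma 3.58.1, lmFit and eBayes, no block). Tested were 31960 probes well above background on both arrays of a genotype; other settings for scaling, background, filter, blocks and test were run as alternatives. With 2 arrays a group, an exact two-sided permutation test cannot go below p = 0.333. Of 43603 probes, 6684 (15.3%) took a name from the RefSeq table of Sscrofa11.1, used for names only. The brightest probe stands for a gene. Named were the 6 genes with all probes, tested genes of the pathway lists, marker lists as counts with their defining genes, and the 2 nearest profiles per gene, which for EGFR, MET and EFNB2 are not reported here. The 6 genes and all lists were chosen with earlier results of these data known. Samples were not treated as paired by replicate number. Deviations of same-numbered arrays correlated at -0.29. Those of arrays on the same slide correlated at 0.29, its mirror image with 2 arrays a group. With so few arrays neither value can decide whether samples are paired.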

Additional observations from a re-analysis of the deposited data

How the results depend on the processing

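All 13 probes of the 6 genes kept their direction under every setting run and stayed called with quantile normalisation, median scaling, no filter, slide as a block, an intensity trend and fold change alone. Over all probes these settings called from 5810 to 7346 higher, of 31960 tested or 43597 without the filter. The 3 probes not well above background in WT entered the test through the KO arrays, so their calls follow in part from the filter. The deposited values and the filter on all 4 arrays hold 10 of the 13, all called. Normexp, which adds an offset of 50 to every spot, called 8 of the 13 probes, 8 of the 14 other pathway genes, and 3832 probes higher and 2594 lower over the whole array, where the main setting gave 6712 and 4170. Under normexp EPHA4 was at 0.65 and EFNB2 at 0.69. The methods' t-test with Bonferroni correction called 0 of the 13 probes and 0 of the 6 genes, and 0 probes in all. With Benjamini-Hochberg adjustment it called 3 probes, 1 gene (EFNB2), 1 pathway gene higher and 0 lower, and 722 and 783 probes in all. Unadjusted it called 12 of the 13 probes. The fold changes are those of the main setting (EGFR 3.03, MET 2.68, FGFR2 2.12, AXL 2.13, EPHA4 2.19, and for EFNB2 a fitted 3.56 that is no measured fold, since WT was not well above background), and the adjusted p of that t-test was 0.0787, 0.0628, 0.0990, 0.0802 and 0.0652 for the first 5. The deposited values called 9 pathway genes higher, and median scaling called 6334 probes lower.

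Leaving out each array in turn gave 12 to 13 of the 13 probes, 9 to 16 pathway genes higher and 2 to 3 lower, 4013 to 7566 probes higher and 2081 to 5147 lower. The counts over all probes were lowest without KO replicate 2. Uncalled genes that changed sign were ADAM17 (-0.058), DUSP6 (-0.246) and ANGPT2 (-0.092) under median scaling, and, over the omitted arrays, HBEGF (-0.17 to 0.15), AREG (-0.026 to 0.89), DUSP6 (-0.067 to 0.092) and BDNF (-1.16 to 0.87). With the replicate block all 13 probes stayed called and 6631 probes were called higher. The crossed pairing, chosen after seeing the data and identical to the slide block, called 6887 higher. The median of all tested probes shifted from -0.06 to -0.32 under median scaling. Probes near background carry the least certain fold changes.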
